A study of Sus scrofa with 6 samples.

Results

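The messenger RNAs of fatty acid, triacylglycerol and sterol metabolism were followed in the lining of the pig uterus through a list of 54 genes. The list was drawn up by gene function (enzymes, carriers, lipid-binding proteins and the transcription factors that control them). Its members were chosen with earlier results of these data known, so the list as a whole was not tested. The probe annotation used here named 47 of the 54 genes, by 72 of the 23999 probe sets tested. ACLY, ELOVL5, GGPS1, IDI1, SOAT1, DHCR7 and CYP51A1 were not named by it and have no value among the members. The 72 probe sets comprised 17 of synthesis, 29 of fatty acid activation and oxidation, 12 of storage, lipolysis and fatty acid binding, and 14 of sterols and isoprenoids.

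The samples came from 3 weaned crossbred Landrace x Large White sows. In each sow, 1 oviduct was inseminated with spermatozoa by laparoscopy, and the opposite oviduct was injected with diluent alone. At day 6, the uterine horn on the inseminated side held embryos at the blastocyst stage (the embryos group), and the other horn held unfertilised oocytes (the oocytes group). Both horns were flushed, and cells were scraped with a glass slide from the mucosa over the first 10 cm next to the oviduct. RNA of each horn was hybridised to 1 Affymetrix porcine array, which gave 3 arrays for each group and 6 in all. The horns of a sow shared anaesthesia, surgery and circulating hormones, whereas spermatozoa entered only on the embryo side. Effects of insemination and of embryos therefore cannot be told apart in this design.

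Cells build fatty acids from acetyl units in the cytosol, then lengthen and desaturate them. To burn them, they attach coenzyme A, carry the product into mitochondria on carnitine and cut it down by repeated rounds of oxidation. Surplus fatty acid is esterified into triacylglycerol and kept in lipid droplets, and cholesterol is made from the same acetyl units through the mevalonate pathway. In the endometrium, membrane fatty acids are also the source of prostaglandins, which the pig uterus secretes around the recognition of pregnancy.

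Values are microarray signals, which are arbitrary units scaled to the same mean on every array, and they were compared only within a probe set. Where a gene had several probe sets, they are numbered here in order of decreasing mean signal, as FASN (1) to FASN (4). Signals of the members ran from 0.4 to 2648.2, and none was 0. The mean log2 signal was above the array's median of 4.93, a signal of about 30.4, for 41 of the 72 member probe sets. By role, this was so for 22 of 29 probe sets of oxidation, 9 of 14 of sterols, 7 of 17 of synthesis and 3 of 12 of storage. Weaker probe sets had wide errors, and their fold changes are given with that limit.

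All 7 epithelial markers had a named probe set, and their summed signal was 7650 to 10400, with MUC1 alone below the median. The scrapings also held other cells. The summed signal of 4 of 5 stromal markers was 3160 to 6750 and that of 4 of 5 smooth muscle markers 458 to 2140, both highest in the horns of sow 1. The 2 named adipocyte markers of 4, ADIPOQ and LEP, summed to only 17.5 to 24.9, and 5 of 6 leukocyte markers to 71.3 to 135. The 5 uterine gland and secretion markers summed to 578 to 895. Of these, ESR1 had a log2 fold change (embryos minus oocytes) of -0.58 without overlap between groups (limma unadjusted p = 0.0373, and 0.0189 with the sow as a block). FOXA2 was lower with embryos in all 3 sows, barely in sow 3, and the groups overlapped (-0.3, limma unadjusted p = 0.288, and 0.0169 with the block). PGR and ACP5 had -0.21 and 0.22 (limma unadjusted p = 0.33 and 0.6). Over the array, 2.88% of probe sets had a limma unadjusted p under 0.05, and 8.7% with the block. SPP1 was higher with embryos in all 3 sows, mostly in sow 2, and the groups overlapped (limma unadjusted p = 0.0576, and 0.0267 with the block). Its ratios of embryo to oocyte signal were 1.24, 7.36 and 1.09 in sows 1, 2 and 3. Their part in the members' differences was not tested. No named marker was at 0. The ratio of 5′ to 3′ signal of the GAPDH control, a sign of RNA length, was 0.355, 0.200 and 0.226 in the oocyte horns of sows 1, 2 and 3 and 0.243, 0.130 and 0.199 in their embryo horns. It was lower on the embryo side in all 3 sows and highest in sow 1, and its part in the results was not tested. In scrapings, fewer cells of a type and less RNA per cell cannot be told apart.

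The first question was whether lipid metabolism in the uterine lining differed between the horn with embryos and the horn with oocytes. None of the 72 member probe sets passed at an adjusted p under 0.05 in limma, a linear model fitted to all probe sets, and over the whole array 0% passed. At an unadjusted p under 0.05, 2 member probe sets were called, DGAT1 (1) and FADS2 (1), both lower with embryos. This was 2.78% of the members, beside 2.88% of all probe sets, of which 1.59% were lower and 1.3% higher. With the sow as a block, which compares the horns within each animal, 11 member probe sets had an unadjusted p under 0.05, or 15.3% beside 8.7% of all probe sets. They comprised 3 that were higher and 8 that were lower with embryos, where 3.75% of all probe sets were higher and 4.95% lower. By role, they were 5 of synthesis, 5 of oxidation, 1 of storage and 0 of sterols. The smallest adjusted p among members with the block was 0.283. Without 1 array the count of 2 ranged from 1 to 5. It was 5 without the oocytes array or the embryos array of sow 3, 4 without the embryos array of sow 1, and 1 without the embryos array of sow 2.

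The members went both ways between horns, with 34 probe sets higher and 38 lower with embryos on average. The median log2 fold change (embryos minus oocytes) of the members was -0.01, beside 0.01 over all probe sets. After normalization, values were lower with embryos in all 3 sows for 14 of 72 members (the share over the array was 14.8%) and higher in all 3 for 9 (14.9% over the array). The 3 embryo arrays lay entirely below the 3 oocyte arrays for 5 members (3.98% over the array) and entirely above them for 1 (4.03%). For 25 of the 72, the 95% interval of the difference lay within 1.5-fold in either direction, beside 23.8% of all probe sets. Among probe sets above the median signal this was 61.0% of members and 47.5% of the array. Of these 25, 16 belonged to oxidation, 6 to sterols, 3 to synthesis and 0 to storage.

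**Figure D1:**
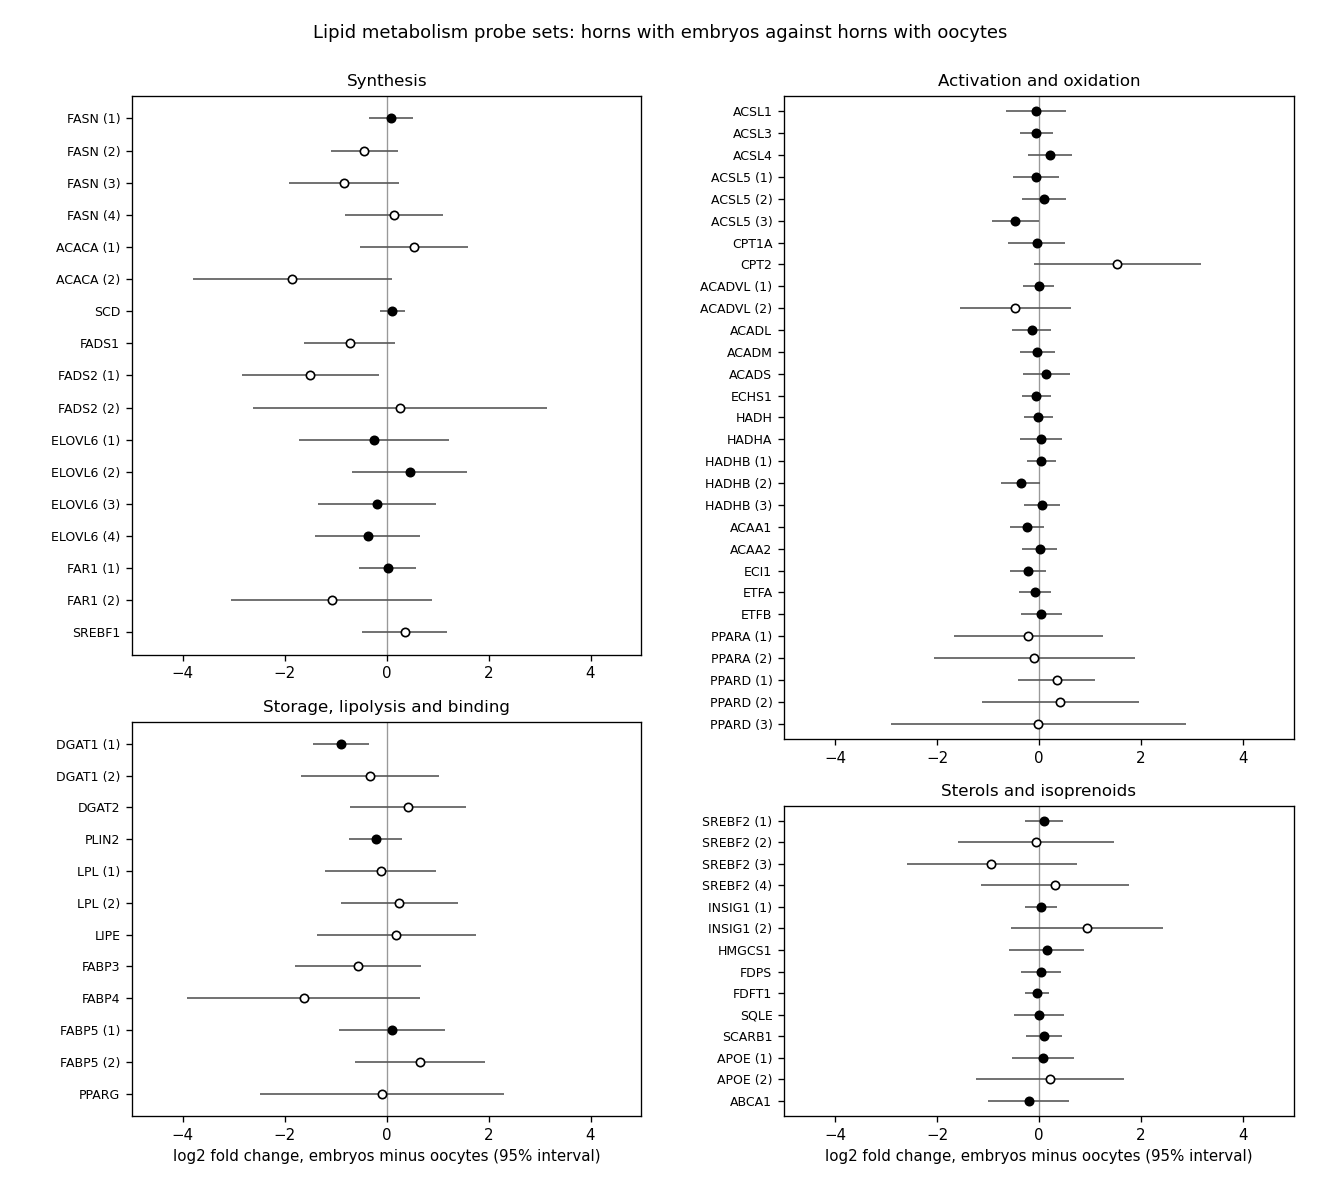
Each point is the log2 fold change of a member probe set between horns with embryos and horns with oocytes (3 arrays each), and the bar is its 95% interval from limma. Filled points are the 41 probe sets above the median signal and open points the weaker ones. DGAT1 (1) and FADS2 (1) are the only intervals that leave out 0, and the filled points of oxidation lie between -0.46 and 0.21.

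Synthesis gave a median log2 fold change of -0.19 over 17 probe sets. After normalization, 8 of them were lower with embryos in all 3 sows (47.1%, beside 14.8% over the array) and 4 higher (23.5%, beside 14.9%). The 8 were FASN (2) and (3), ACACA (2), FADS1, FADS2 (1) and ELOVL6 (1), (3) and (4), so several came from the same gene. ACACA (2) was among them although its deposited signals were equal in sow 3. The sign of that median was carried by weak probe sets. It was 0.02 over the 7 probe sets above the median signal, and 0.05 with the strongest probe set of each gene. It was also above 0 without the oocytes array of sow 3 (0.15) or the embryos array of sow 2 (0.07).

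Fatty acid synthase, FASN, assembles palmitate. FASN (1) gave 399.3, 495.9 and 515.9 in the oocyte horns of sows 1, 2 and 3 and 372.6, 521.2 and 635.9 in their embryo horns. The groups overlapped, with a log2 fold change of 0.09 ± 0.19 (SE, n = 3 arrays per group). The other 3 FASN probe sets lay below the median signal, with log2 fold changes of -0.84 to 0.14. FASN (3) gave 33.3, 17.7 and 25.4 with oocytes and 14.8, 7.3 and 25.0 with embryos, lower in every sow but barely in sow 3 (limma unadjusted p = 0.112, and 0.0487 with the sow as a block).

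Acetyl-CoA carboxylase, ACACA, supplies FASN with malonyl-CoA. Its probe sets were weak and went opposite ways. ACACA (1) gave 9.5, 6.9 and 8.0 with oocytes and 11.2, 8.1 and 18.3 with embryos. ACACA (2) gave 7.2, 6.7 and 1.1 with oocytes and 1.4, 0.8 and 1.1 with embryos. The first was higher with embryos in all sows by signal and the second was not higher in any, so the pair gives no common direction for the gene.

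The desaturases insert double bonds, SCD into saturated fatty acids and FADS1 and FADS2 into polyunsaturated ones. SCD gave 615.6, 662.6 and 719.9 with oocytes and 663.9, 725.2 and 766.1 with embryos. It was a little higher with embryos in each sow, although the groups overlapped, and the log2 fold change of 0.11 had a 95% interval of -0.14 to 0.36. FADS1 gave 34.5, 27.0 and 28.9 with oocytes and 22.7, 9.7 and 27.4 with embryos. The FADS1 groups did not overlap, yet sow 3 barely differed between its horns (log2 fold change -0.73 ± 0.39, limma unadjusted p = 0.0973). FADS2 (1) gave 8.2, 9.3 and 15.0 with oocytes and 6.6, 2.1 and 3.8 with embryos. All 3 embryo values were below the oocyte values, by -1.50 ± 0.59 on the log2 scale (limma unadjusted p = 0.032, adjusted p = 1). These signals are well below the array's median, and the unadjusted p was above 0.05 without the array of sow 2 or of sow 3 of either group. FADS2 (2) had a log2 fold change of 0.26 with a 95% interval of -2.63 to 3.15, which shows no direction.

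ELOVL6, which lengthens palmitate to stearate, had 4 probe sets, and they did not go the same way between horns. ELOVL6 (1) gave 1137.4, 655.9 and 2648.2 with oocytes and 980.2, 463.9 and 2571.9 with embryos. ELOVL6 (3) gave 123.0, 161.5 and 370.4 with oocytes and 106.4, 129.6 and 362.6 with embryos. ELOVL6 (4) gave 116.2, 108.6 and 263.2 with oocytes and 88.7, 77.0 and 226.4 with embryos. These were lower on the embryo side in each sow, with ratios of embryo to oocyte signal from 0.707 to 0.979. ELOVL6 (2) gave 190.8, 152.9 and 547.7 with oocytes and 220.1, 306.6 and 613.0 with embryos, which was higher on the embryo side in each sow. With the sow as a block, the unadjusted limma p was 0.0224, 0.0119, 0.0886 and 0.00738 for ELOVL6 (1) to (4). The direction thus differed between probe sets of the gene. In all 4, the horns of sow 3 stood far above the others.

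FAR1, which reduces fatty acids to the alcohols of ether lipids, had a log2 fold change of 0.02 ± 0.25 in its stronger probe set. SREBF1, the transcription factor that drives fatty acid synthesis, was weak, with mean signals of 16.2 ± 2.95 with oocytes and 20.9 ± 3.76 with embryos (SD, n = 3).

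Activation and oxidation had the smallest differences between horns of the 4 roles, with a median size of 0.07 on the log2 scale, beside 0.10 for sterols. It was also the role with the largest share of probe sets above the median signal, 75.9%. With the sow as a block, 5 of its 29 probe sets had a limma unadjusted p under 0.05 (17.2%, beside 8.7% of all probe sets). The median log2 fold change was -0.03 over 29 probe sets, and the 95% interval lay within 1.5-fold for 16 of the 22 above the median signal. Normalized values were higher with embryos in every sow for 1 of 29 probe sets (3.45%, beside 14.9% over the array). They were lower in every sow for 3 (10.3%, beside 14.8%).

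The long-chain acyl-CoA synthetases attach coenzyme A to fatty acids. ACSL3 gave 1335.6, 1464.9 and 1920.3 with oocytes and 1436.5, 1467.5 and 1609.3 with embryos, with overlapping groups. ACSL4, which prefers arachidonic acid, had a log2 fold change of 0.21 ± 0.19, higher with embryos in each sow (limma unadjusted p = 0.291, and 0.0461 with the sow as a block). ACSL5 (3) gave 108.2, 95.6 and 72.1 with oocytes and 73.3, 59.6 and 66.7 with embryos. That probe set was lower with embryos in each sow, mostly in sows 1 and 2, by -0.46 ± 0.20 (limma unadjusted p = 0.0508, and 0.0138 with the block). The stronger ACSL5 (1) and (2) had -0.06 ± 0.20 and 0.10 ± 0.19, so the 3 probe sets of the gene did not move together. ACSL1 had -0.05 ± 0.26.

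The carnitine palmitoyltransferases move fatty acids into mitochondria, CPT1A at the outer membrane and CPT2 at the inner. CPT1A gave 934.2, 1025.9 and 588.5 with oocytes and 866.4, 980.9 and 607.6 with embryos. Within a sow the horns were nearly equal, and sow 3 was low in both. CPT2 was weak, at 3.6, 19.0 and 3.3 with oocytes and 26.0, 17.6 and 12.7 with embryos. It was higher with embryos in sows 1 and 3 and not in sow 2 (log2 fold change 1.54 ± 0.72, limma unadjusted p = 0.0622, and 0.028 with the block).

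The enzymes of the oxidation rounds hardly differed. ECHS1, the enoyl-CoA hydratase, gave 1450.2, 1387.3 and 1221.6 with oocytes and 1328.3, 1441.3 and 1158.3 with embryos, and the groups overlapped. The acyl-CoA dehydrogenases, which take the opening step of each round, had log2 fold changes of 0.00 (ACADVL (1)), -0.14 (ACADL), -0.03 (ACADM) and 0.14 (ACADS), with standard errors of 0.13 to 0.20. HADH, the next dehydrogenase of the round, had -0.01 ± 0.13. The thiolase ACAA2 had 0.02 ± 0.15, and ETFA and ETFB, which pass the electrons on, had -0.07 ± 0.14 and 0.05 ± 0.18. The peroxisomal thiolase ACAA1 gave 267.6, 309.2 and 310.4 with oocytes and 237.4, 222.9 and 301.9 with embryos. It was lower with embryos in each sow, mostly in sow 2, with overlapping groups (-0.23 ± 0.15, limma unadjusted p = 0.154, and 0.0464 with the block). The isomerase ECI1 had -0.21 ± 0.16. The receptors PPARA and PPARD, which switch on genes of oxidation, were below the median signal in all 5 of their probe sets, and their log2 fold changes lay between -0.21 and 0.42 with standard errors of 0.33 or more.

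HADHA and HADHB form the mitochondrial trifunctional protein. HADHA had a log2 fold change of 0.04 ± 0.18. The study listed HADHB (2) as altered on these same arrays, so its direction here is no independent evidence. It gave 351.5, 275.4 and 324.7 with oocytes and 288.6, 208.4 and 248.3 with embryos. Each embryo horn was below the oocyte horn of its own sow, whereas the groups overlapped because sows differed by as much. The log2 fold change was -0.36 ± 0.17 (limma unadjusted p = 0.065, adjusted p = 1). The unadjusted p was 0.00163 with the block. HADHB (1) gave 399.2, 338.0 and 394.5 with oocytes and 394.6, 374.6 and 400.9 with embryos. HADHB (3) gave 178.1, 187.5 and 233.3 with oocytes and 181.6, 215.6 and 231.2 with embryos. Neither of these was lower with embryos on average (0.05 ± 0.13 and 0.07 ± 0.15), so the lower values were in 1 of 3 probe sets of the gene.

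DGAT1 (1) had the smallest unadjusted p between horns among the members in the fit without the sow, and HADHB (2) in the fit with it. DGAT1 esterifies diacylglycerol to triacylglycerol, the last step of fat synthesis. DGAT1 (1) gave 59.2, 51.9 and 46.6 in the oocyte horns of sows 1, 2 and 3 and 25.0, 27.1 and 33.2 in their embryo horns. All 3 embryo horns were below all 3 oocyte horns, with means of 52.6 ± 6.33 and 28.4 ± 4.26 (SD, n = 3). The log2 fold change was -0.90 ± 0.24, with a 95% interval of -1.44 to -0.35. It had a limma unadjusted p of 0.00502 and an adjusted p of 1 over all probe sets. With the sow as a block, these were 0.00261 and 0.309. The unadjusted p was under 0.05 in each of the 13 alternative settings, without each array in turn included, and the log2 fold change ranged from -1.01 to -0.49. DGAT1 had been picked out by earlier results on these arrays, and 2.88% of all probe sets reach this threshold. DGAT1 (2) was weak and gave 5.9, 15.3 and 15.2 with oocytes and 15.5, 5.0 and 9.3 with embryos, which were higher in sow 1 and lower in sows 2 and 3 (-0.33 ± 0.60). Its 95% interval of -1.69 to 1.03 held both 0 and the difference of DGAT1 (1).

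**Figure D2:**
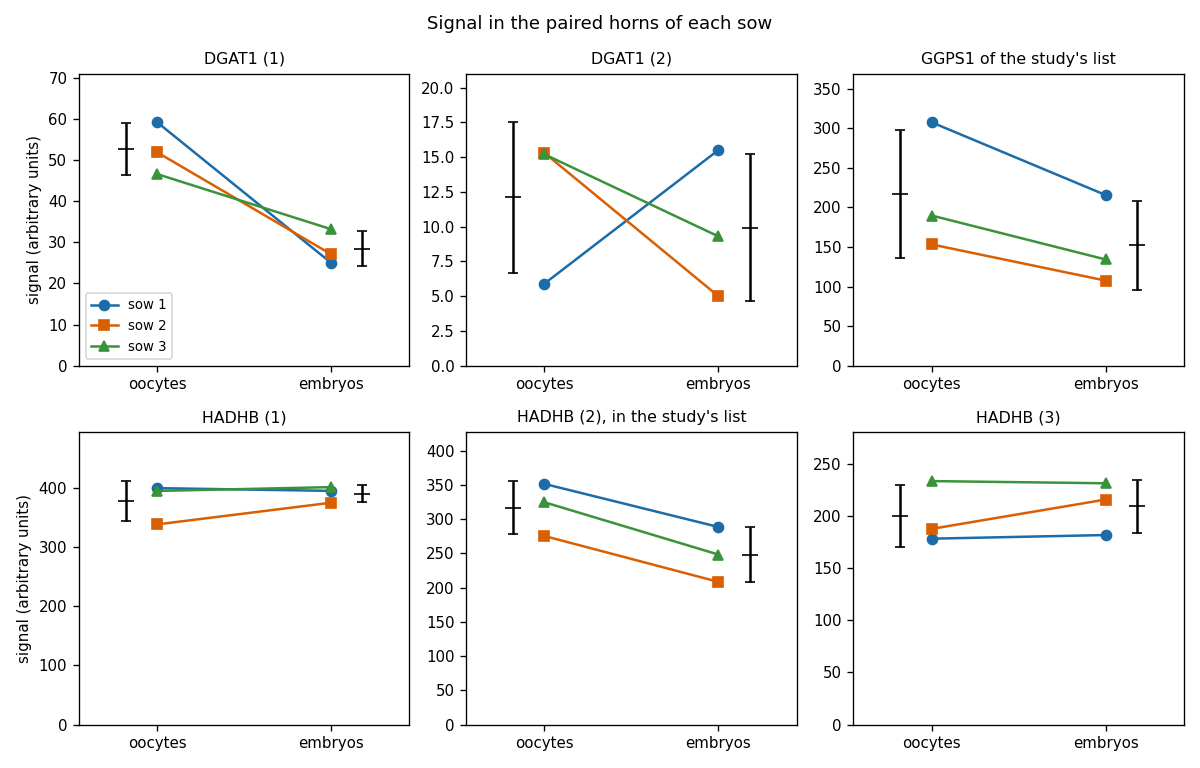
Signals of DGAT1, HADHB and the probe set that the study named GGPS1 in the horn with oocytes and the horn with embryos, with a line for each sow and the group mean ± SD (n = 3) in black. DGAT1 (1), HADHB (2) and the GGPS1 probe set are lower with embryos in all 3 sows, whereas DGAT1 (2), HADHB (1) and HADHB (3) do not.

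The other genes of storage and binding were mostly weak. DGAT2, which catalyses the same step as DGAT1, had a log2 fold change of 0.41 ± 0.50 at mean signals of 12.8 with oocytes and 16.9 with embryos. PLIN2, which coats lipid droplets, gave 85.5, 72.1 and 101.1 with oocytes and 85.0, 54.6 and 86.0 with embryos. It was lower with embryos in each sow, only slightly in sow 1, and the groups overlapped (-0.22 ± 0.23). The lipases LPL and LIPE release fatty acids from triacylglycerol. They had log2 fold changes of -0.12 to 0.25, and LIPE stayed under a signal of 2 on every array.

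The fatty acid-binding proteins carry fatty acids inside the cell. FABP3 gave 24.6, 24.4 and 32.4 with oocytes and 8.0, 27.7 and 27.8 with embryos, so its mean difference rested on the embryo horn of sow 1 (-0.57 ± 0.54). FABP4, a protein of adipocytes and macrophages, gave 6.0, 7.0 and 0.6 with oocytes and 1.2, 0.7 and 1.1 with embryos, near the floor of the array. FABP5 (1) gave 97.7, 49.9 and 29.1 with oocytes and 96.5, 45.6 and 40.6 with embryos. The horns of a sow were alike, and the sows were not. FABP5 (2) gave 7.3, 5.1 and 3.6 with oocytes and 15.5, 5.9 and 6.0 with embryos, a weak signal that was higher with embryos in each sow (0.66 ± 0.56). PPARG, the regulator of fat cell genes, stayed under a signal of 5 and showed no direction (log2 fold change -0.09, 95% interval -2.48 to 2.31).

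No probe set of sterols and isoprenoids had an unadjusted p under 0.05 between horns, with or without the sow as a block. The median log2 fold change was 0.06 over 14 probe sets, and for the 9 above the median signal it lay between -0.19 and 0.15. FDPS, which makes farnesyl diphosphate, gave 2370.2, 2068.5 and 1701.8 with oocytes and 2387.4, 2222.3 and 1676.8 with embryos. FDFT1, the squalene synthase that follows it, gave 793.2, 769.0 and 781.4 with oocytes and 776.3, 744.9 and 759.5 with embryos. FDFT1 had the smallest standard error of the members in the fit without the sow, 0.10, and 0.07 with the sow as a block. Its log2 fold change was -0.04, with a 95% interval of -0.27 to 0.19. SQLE, which oxidises squalene, had 0.01 ± 0.22.

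HMGCS1, which opens the mevalonate pathway, gave 398.6, 591.4 and 829.9 with oocytes and 401.1, 723.0 and 918.8 with embryos. The horns of sow 1 were equal, and those of sows 2 and 3 were somewhat higher with embryos (0.15 ± 0.32). SREBF2 is the transcription factor of sterol synthesis, and INSIG1 holds it back when sterols are plentiful. SREBF2 (1) gave 155.2, 183.7 and 179.2 with oocytes and 159.9, 227.1 and 174.8 with embryos, and the groups overlapped. The weak SREBF2 (3) gave 21.7, 7.9 and 13.2 with oocytes and 3.1, 5.9 and 18.8 with embryos, with no common direction. INSIG1 (1) had 0.04 ± 0.14. The weak INSIG1 (2) gave 2.6, 4.1 and 9.0 with oocytes and 6.5, 10.3 and 10.5 with embryos, higher with embryos in each sow (0.94 ± 0.65). SCARB1, the receptor for high-density lipoprotein, gave 222.1, 294.8 and 213.8 with oocytes and 239.7, 289.5 and 252.4 with embryos, with overlapping groups. APOE (1), an apolipoprotein, and ABCA1, which exports cholesterol from cells, had 0.08 ± 0.26 and -0.19 ± 0.35.

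GGPS1, which makes geranylgeranyl diphosphate, is on the list but was not named by the annotation used here. The study gave that name to a probe set that it listed as altered on these same arrays. The signals were 307.4, 153.2 and 189.7 with oocytes and 215.6, 107.5 and 134.2 with embryos. The difference was almost the same in each sow, with log2 differences of -0.53, -0.51 and -0.50, while the sows differed by more than that. The limma unadjusted p was therefore 0.146 without the sow and 0.000323 with it, and the adjusted p with the block was 0.221. It is not counted among the members, and its direction is no independent evidence.

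A further comparison, other than the study's own, was between the animals. In the fit of group plus sow, 16 of the 72 member probe sets differed between sows at an adjusted p under 0.05 (22.2%, beside 11.3% of all probe sets). All 16 lay above the median signal, where they made up 39.0% of members, beside 20.8% of the array. They belonged to 13 genes, as 4 of them were probe sets of ELOVL6. By role, they comprised 5 of synthesis, 5 of oxidation, 1 of storage and 5 of sterols. Each sow is represented by 2 horns, so a sow and everything handled with it cannot be told apart. These calls rest on letting the variance depend on signal, and without that trend the limma fit called 0 members and 0 probe sets of the array (smallest adjusted p among these 16, 0.266). Without the oocytes array of sow 1 the members called were 7, and 11 without that of sow 2 or without the embryos array of sow 1.

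Among the members called between sows, ELOVL6 (1) had the widest range. The mean log2 signal over both horns of sows 1, 2 and 3 was 10.08, 9.09 and 11.35 for ELOVL6 (1), so that sow 3 was 4.80-fold above sow 2. For ELOVL6 (2), (3) and (4) it was 2.74-fold, 3.13-fold and 2.64-fold above the lowest sow. In all 4 probe sets, both horns of sow 3 were above the 4 horns of the other sows, whatever the horn held. Such a separation of 1 sow was common, seen in 45 of the 72 members and in 52.2% of all probe sets. The limma adjusted p between sows was 1.2e-05, 0.00105, 0.000104 and 0.000362 for ELOVL6 (1) to (4). Each kept an adjusted p under 0.05 in 12 of the 13 settings, the exception being the fit without a variance trend. The summed epithelial markers were 9850 and 10400 in sow 3, 10200 and 9880 in sow 2, and 7870 and 7650 in sow 1. The stromal sums were 4600 and 4780 in sow 3, 3230 and 3160 in sow 2, and 6750 and 6440 in sow 1. The smooth muscle sums were 787 and 908 in sow 3, 458 and 572 in sow 2, and 2140 and 1370 in sow 1. Stromal and smooth muscle sums were thus highest in sow 1, and ELOVL6 was highest in sow 3. Their part in the difference was not tested.

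FASN (1) was also highest in sow 3, with mean log2 signals of 8.62, 8.97 and 9.15 in sows 1, 2 and 3 (limma adjusted p = 0.0339). Its adjusted p was above 0.05 without either array of sow 1, and with 32 added to each signal (0.0558). SCD did not pass the test between sows (limma adjusted p = 0.405), and its highest and lowest sow differed 1.13-fold.

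**Figure D3:**
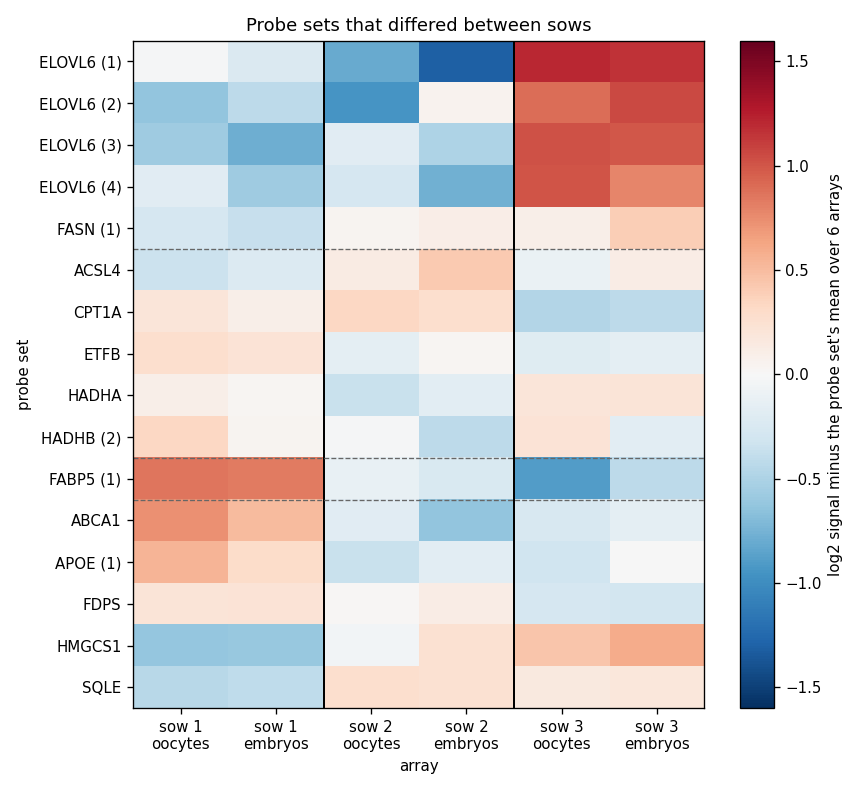
Heat map of the 16 member probe sets with an adjusted p under 0.05 between sows, in rows ordered by role, over the 6 arrays. Colour gives the log2 of the deposited signal minus the probe set's mean over the arrays, and the horns of a sow stand side by side. ELOVL6 is high in both horns of sow 3, HMGCS1 and SQLE are low in both horns of sow 1, and FABP5 (1), ABCA1 and APOE (1) are high there.

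In sterol synthesis, the sows were ordered differently by different enzymes. HMGCS1 had mean log2 signals of 8.68, 9.33 and 9.76 in sows 1, 2 and 3, in the same order in both horns, a 2.12-fold range (limma adjusted p = 0.00041). SQLE was lowest in sow 1 as well, at 8.69, 9.31 and 9.23, a 1.54-fold range (limma adjusted p = 0.00304, and 0.054 without the oocytes array of sow 1). FDPS went the other way, at 11.25, 11.05 and 10.73, highest in sow 1 and lowest in sow 3 (1.43-fold, limma adjusted p = 0.00802, and 0.0539 without the oocytes array of sow 1). FDFT1 differed only 1.08-fold between its highest and lowest sow, and INSIG1 (1) 1.21-fold. The enzymes of the pathway thus did not share an order of sows.

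ABCA1, APOE (1) and FABP5 (1) were highest in both horns of sow 1. ABCA1 was 2.11-fold above its lowest sow (limma adjusted p = 0.00179), APOE (1) 1.61-fold (0.031) and FABP5 (1) 2.73-fold (0.00615). The adjusted p of APOE (1) was above 0.05 without either oocytes array of sows 1 and 2, and with equal medians in place of loess (0.0915). That of FABP5 (1) was above 0.05 without the oocytes array of sow 1 (0.0942). Stromal markers were likewise highest in sow 1, with sums of 6750 and 6440 against 3160 to 4780 in the other sows, and smooth muscle markers were 2140 and 1370 against 458 to 908. Epithelial markers were lowest there, at 7870 and 7650. The part of this mixture of cells in the 3 genes was not tested.

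Of the oxidation genes, CPT1A differed most clearly. Its mean log2 signals were 9.85, 9.95 and 9.22, lowest in sow 3 in both horns, a 1.66-fold range (limma adjusted p = 0.00136). Sow 3, which had the highest ELOVL6 and FASN (1), had the lowest CPT1A, over 3 animals only. The other oxidation probe sets called between sows did not share this order. ETFB was lowest in sow 3, HADHA was highest there, and sow 3 was in the middle for ACSL4 and HADHB (2). ACSL4, HADHA, HADHB (2) and ETFB had ranges of 1.37-fold to 1.43-fold and limma adjusted p of 0.0338 to 0.0492, and each lost the call in 6 or more of the 12 alternative settings. Oxidation probe sets that were not called between sows ranged from narrow to wide. ACADL differed 1.06-fold between its highest and lowest sow, ECHS1 1.19-fold and ACADM 1.12-fold. ACSL5 (1) differed 1.43-fold, and the ranges of ACSL1 and ACADS were about as wide. A missed threshold therefore does not show that a gene was even between animals.

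**Figure D4:**
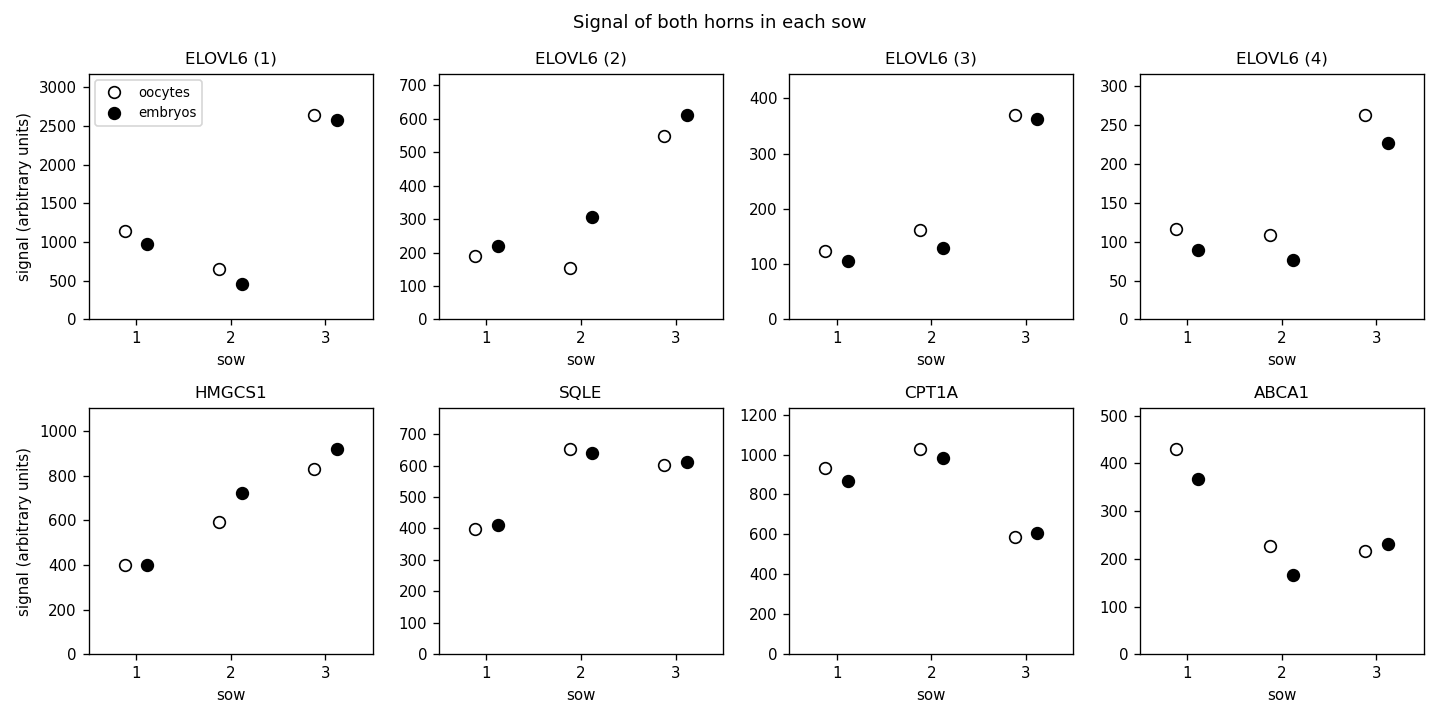
Signals of both horns of each sow (open circles, oocytes; filled circles, embryos; 1 array each) for ELOVL6 (1) to (4), HMGCS1, SQLE, CPT1A and ABCA1, on axes that start at 0. ELOVL6 is highest in both horns of sow 3, HMGCS1 and SQLE are lowest in both horns of sow 1, CPT1A is lowest in sow 3 and ABCA1 highest in sow 1, while the horns of ELOVL6 (2) in sow 2 lie far apart (152.9 and 306.6).

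Set side by side, the spread between sows exceeded the difference between horns for most members. Among the 41 above the median signal, the median range of sow means was 0.46 on the log2 scale, and the median size of the difference between embryos and oocytes was 0.09. The range was the larger for 38 of 41. A range over 3 means of 2 arrays is larger than a difference between 2 means of 3 arrays even without any effect, so this count is a description. DGAT1 (1) stood out in the opposite way. Its sow means lay within 0.11 of each other, with a limma adjusted p of 0.954 between sows, and its horns differed by 0.90. Over sows 1 to 3 its oocyte signals fell and its embryo signals rose, with log2 differences of -1.28, -0.90 and -0.52. The larger difference between horns was also seen in ACSL5 (3) (sow range 0.34, horns 0.46) and ACADL (0.09 and 0.14).

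**Figure D5:**
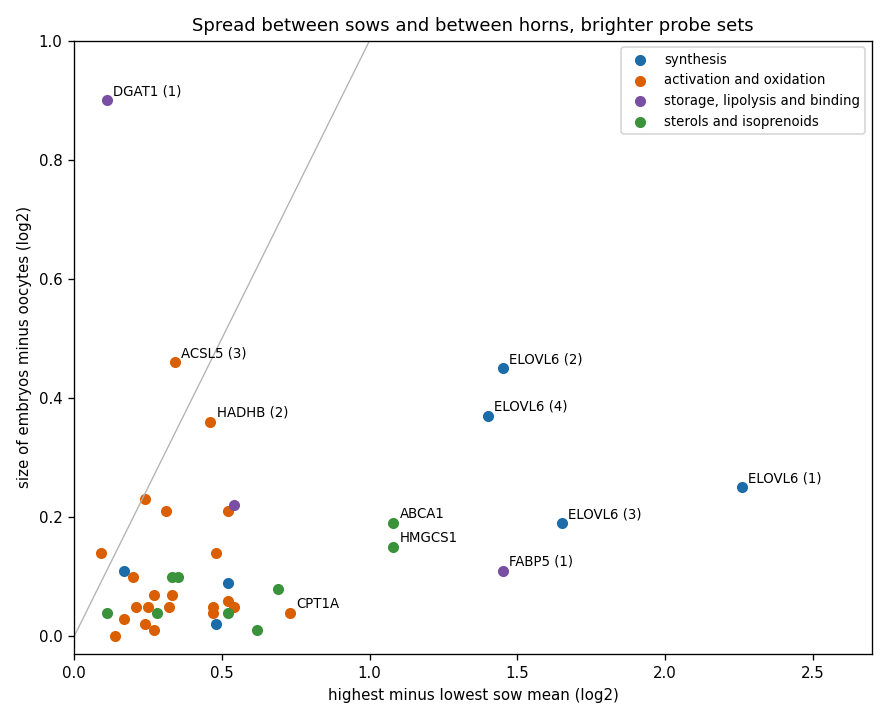
For each of the 41 member probe sets above the median signal, the log2 range of the 3 sow means (horizontal) is set against the size of the log2 difference between embryos and oocytes (vertical), coloured by role, and the grey line marks equality. DGAT1 (1) lies far above the line at 0.11 and 0.90, and the ELOVL6 probe sets lie far to the right, with ELOVL6 (1) at 2.26.

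Other genes of the same pathways, 49 of a further list of 78, were named by 74 probe sets and were compared in the same way. None passed at an adjusted p under 0.05 between horns. At an unadjusted p under 0.05, 1 was lower and 0 were higher with embryos (1.35%, beside 2.88% of all probe sets). It was a probe set of ABCD3, which carries fatty acids into peroxisomes. It gave 152.2, 184.7 and 164.4 with oocytes and 118.5, 126.8 and 133.8 with embryos, without overlap (-0.41, limma unadjusted p = 0.0206). The other ABCD3 probe sets had 0.06, with no common direction over the sows, and -0.32. The latter was also lower in all 3 sows without overlap (limma unadjusted p = 0.0655, and 0.0186 with the sow as a block). With the sow as a block, 7 of the 74 were lower and 0 higher (9.46%, beside 8.7% of all probe sets). Over the array, 4.95% were lower and 3.75% higher with the block. Between sows, 13 of the 74 differed at an adjusted p under 0.05 (17.6%, beside 11.3%). Above the median signal, where 71.6% of these probe sets lay, the share was 24.5%, beside 20.8% of the array. They included HACD3 (2 probe sets) and HSD17B12, which take part in the elongation cycle that ELOVL6 opens. These were lowest in sow 1, and only HACD3 was highest in sow 3. Their ranges were at most 1.70-fold. The other HACD3 probe sets did not pass between sows (limma adjusted p = 0.0653 and 0.669) and were lowest in sow 2.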

How the data were processed

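Total RNA from 6 uterine horns (3 sows, 3 horns per group) was hybridised to Affymetrix porcine arrays. The deposited values are linear intensity signals that the authors computed with Microarray Suite (MAS5 version 5.1 per the labels), 1 per probe set and array, each array with a 2% trimmed mean of 100.02. Detection calls were not used here. Signals were set to a floor of 0.1 (1 to 3 zeros per array, none in a member), taken to log2 and normalized by cyclic loess over 24123 probe sets, and 124 control probe sets were then left out. The limma package (3.58.1, R 4.3.3) fitted group alone (the study's model on single probes had treatment, probe and a random array effect, and likewise no sow term), with a variance trend and Benjamini-Hochberg adjustment over 23999 probe sets at 0.05, two-sided. Printed signals are as deposited, and fold changes are after normalization. The number of arrays limits the precision.

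Same-numbered arrays came from the same sow: 6 of 6 per-sow ratios in the study's methods equalled those of the arrays of that number (tolerance 0.001), deviations from group means correlated at 0.207, 0.173 and 0.100, and 6 of 6 arrays correlated best with their namesake. A fit of group plus sow gave the blocked values and the F-test between sows. Of the 23999 probe sets, 10069 had 1 symbol in the platform annotation, 198 several and 13732 none. All 72 member probe sets kept their symbol in a current gene table. Values on every array were given for DGAT1, HADHB and GGPS1, members with an unadjusted p under 0.05, up to 4 with the smallest p and the 2 strongest of each role, genes with opposed probe sets and the 6 smallest p between sows. ABCD3 follows a like rule for the further list. The members and lists were chosen with earlier results of these data known. The fits were also run on simulated arrays with known changes. In these, sows differed only in probe sets given a sow change, so the spread between the real sows was not simulated. Alternatives were other normalizations, an added constant, a signal filter, no variance trend, the sow block and leaving out each array.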

Additional observations from a re-analysis of the deposited data

How the results depend on the processing

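No probe set passed at an adjusted p under 0.05 between horns in any of the 13 alternative settings. The sow as a replicate block raised the unadjusted count from 692 to 2088 over the array and from 2 to 11 among members and from 1 to 7 in the further list, and changed no call at an adjusted p under 0.05. Testing only the 11999 probe sets above the median signal gave 232. In the main fit, 1.94% of the probe sets above the median signal were called, beside 2.88% of all. Leaving out 1 array gave 554 to 1036 over the array and 1 to 5 among members. Between sows, calls numbered 2707 over the array and 16 among members, 0 and 0 without a variance trend, and 1317 to 3638 and 7 to 19 without 1 array (1317 without the oocytes array and 1366 without the embryos array of sow 1). The cause was not tested. Medians of log2 fold change moved to -0.05 for all members and -0.40 for synthesis with the mean per gene, and for synthesis to 0.02 above the median signal and 0.05 with the strongest probe set. Without 1 array they ranged from -0.03 to 0.00 for all members, -0.38 to 0.15 for synthesis, -0.05 to 0.03 for oxidation, -0.28 to 0.04 for storage and -0.02 to 0.13 for sterols. Of the member probe sets followed singly, 14 changed sign when an array was left out and 0 under the other settings. Their ranges were -0.90 to 0.36, -0.73 to 0.27 and -0.85 to 0.03 for ELOVL6 (1), (3) and (4), -0.14 to 0.10 for ACSL3, -0.29 to 0.16 for CPT1A, -0.12 to 0.03 for ECHS1, -0.04 to 0.11 and 0.00 to 0.18 for HADHB (1) and (3), -0.84 to 0.02 for DGAT1 (2), -0.93 to 0.09 for FABP3, -0.31 to 0.54 for FABP5 (1), -0.05 to 0.19 for SREBF2 (1), -0.11 to 0.47 for HMGCS1 and -0.09 to 0.18 for FDPS.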
